A study of Mus musculus with 12 samples.

Results

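Atg7 and 7 further genes of the enzyme cascade that attaches ATG12 to ATG5 and LC3 to lipid were followed in cultured mouse keratinocytes. The genes were chosen by name, as those annotated to the cascade: Atg7, Atg3, Atg5, Atg10, Atg12, Atg16l1, Atg4b and Atg4c. They are 8 of the 22180 genes that the array annotation names, and each was measured by 1 probe set. RNA from 12 cultures was hybridised to 12 Affymetrix arrays, with 3 arrays in each of 4 groups. KO keratinocytes were Atg7 f/f and carried K14::Cre, and wt keratinocytes were Atg7 f/f without K14::Cre, so both genotypes carried the floxed Atg7 alleles. Each genotype received paraquat at 20 µM or a sham treatment, and RNA was taken after 48 h. K14 is the keratin of basal keratinocytes, so the recombinase is meant to act in those cells and their descendants. In which cells of these cultures it acted was not measured here. The strain, age and number of the mice, and which part of Atg7 is floxed, were not stated in the labels. The replicates are described as biological, without a statement of which culture came from which animal, so p-values measure only the spread between these samples.

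Autophagy encloses cytoplasm in a double membrane, and its growth depends on a pair of ubiquitin-like conjugation reactions. ATG7 is the activating (E1) enzyme of both. It passes ATG12 to the conjugating enzyme ATG10, which joins ATG12 to ATG5, and it passes LC3 and GABARAP proteins to the conjugating enzyme ATG3. The ATG12-ATG5 conjugate binds ATG16L1 and directs ATG3 to link LC3 to phosphatidylethanolamine in the membrane. ATG4 proteases, ATG4B and ATG4C among them, trim new LC3-family proteins and release them from lipid again. Loss of ATG7 stops both reactions, and the epidermis relies on autophagy to clear damaged protein and organelles. Paraquat is a herbicide that cycles with oxygen and generates superoxide.

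The arrays carried keratinocyte RNA by their marker genes. Krt14, the keratin gene whose promoter drives the recombinase, had signals of 9192 to 9732 in KO paraquat arrays, 10895 to 11102 in KO sham arrays, 8933 to 9003 in wt paraquat arrays and 10806 to 10954 in wt sham arrays. It fell under paraquat by log2 0.22 in KO (adjusted p = 0.0267 in limma, a call lost in 8 of 22 alternatives, among them centring on array medians, at 0.113, and leaving out KO paraquat 3, at 0.0807) and by log2 0.28 in wt (adjusted p = 0.00547). Array medians were 42 to 45, and background was not measured. Of the 6 keratinocyte markers 5 had a probe set of their own. Of these 5, 3 fell and 0 rose under paraquat in each genotype, where 12.6% of all genes fell in KO and 14.3% in wt. Itgb4 was at 1044 to 1370 in KO paraquat, 1652 to 2176 in KO sham, 1017 to 1053 in wt paraquat and 2044 to 2702 in wt sham. Itga6 was not called in either genotype. It was at 2612 to 2965 in KO paraquat and 2350 to 2763 in KO sham, which overlapped. In wt its paraquat arrays, at 2424 to 2496, lay above its sham arrays, at 1738 to 2418. Markers of other cells spanned the array medians. Among leukocyte and Langerhans cell markers Ptprc was at 13 to 21, Cd207 at 50 to 63 and Cd68 at 559 to 1870, and among fibroblast markers Lum was at 8 to 12 and Col1a1 at 60 to 77. The first component of variation (64.4% of the variance) parted paraquat from sham arrays. Wt sham 2 lay at -31.4 on the second component, and the other wt sham arrays at -11.4 and -20.4. KO paraquat 3 lay at -19.7 on the third, and the other KO paraquat arrays at -5.52 and -6.34. Calls of the conjugation genes that are lost or gained without these arrays, and calls of the pathway lists that are lost, are named beside the results.

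Promoter sequence is shown for the genes of the cascade that changed under paraquat in wt cells and had an entry in the promoter table. The sequences are the 250 bases before a RefSeq transcript start (GRCm38.p6), 5′ to 3′ on the strand of the gene, with each CACGTG in capitals. CACGTG is an E-box, a palindrome bound by factors such as TFEB, TFE3 and MITF. They lie at chr16:45158579-45158828 (+ strand) for Atg3, chr10:44268089-44268338 (+ strand) for Atg5, chr6:114670846-114671095 (+ strand) for Atg7 and chr13:91223988-91224237 (- strand) for Atg10. The Atg7 window precedes a start inside the annotated gene, which spans 114643127 to 114860604 on chromosome 6.
Atg3: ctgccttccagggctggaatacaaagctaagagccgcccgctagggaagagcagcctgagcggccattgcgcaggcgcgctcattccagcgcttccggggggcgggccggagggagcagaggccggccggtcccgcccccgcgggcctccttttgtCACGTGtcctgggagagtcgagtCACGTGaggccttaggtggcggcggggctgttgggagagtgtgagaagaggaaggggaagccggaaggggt
Atg5: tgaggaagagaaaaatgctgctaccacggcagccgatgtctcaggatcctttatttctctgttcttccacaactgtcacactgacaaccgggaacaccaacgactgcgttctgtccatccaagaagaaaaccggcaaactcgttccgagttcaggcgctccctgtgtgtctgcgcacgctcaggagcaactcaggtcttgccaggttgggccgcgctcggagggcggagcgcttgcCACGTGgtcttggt
Atg7: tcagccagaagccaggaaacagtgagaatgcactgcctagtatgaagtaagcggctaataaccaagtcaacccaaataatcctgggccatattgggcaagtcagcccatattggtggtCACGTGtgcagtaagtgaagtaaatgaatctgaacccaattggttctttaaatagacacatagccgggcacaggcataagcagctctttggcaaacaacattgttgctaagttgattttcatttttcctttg
Atg10: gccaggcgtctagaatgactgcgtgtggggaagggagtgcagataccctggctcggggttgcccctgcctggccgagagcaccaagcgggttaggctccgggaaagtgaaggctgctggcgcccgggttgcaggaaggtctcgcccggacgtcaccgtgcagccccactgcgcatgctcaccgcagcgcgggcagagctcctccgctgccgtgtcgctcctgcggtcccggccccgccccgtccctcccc

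CACGTG occurred at 2 places in the Atg3 window, starting 94 and 71 bases before the start. Atg5 held 1 match at 14 bases and Atg7 held 1 at 132 bases before its start, and the Atg10, Atg4b and Atg4c windows held none. Of 32851 such windows in the whole table, 6.02% held CACGTG. The same 6 genes were searched on both strands for TGACNNNGC (the core of the antioxidant response element, in 10.2% of all windows), GTAAACA (a forkhead motif, 3.17%) and TGATGNAA (the core of an ATF4 element, 3.45%). None of these motifs, with N for any base, occurred in their windows. A match is a description of the sequence, and its part in the values below was not tested.

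KO and wt keratinocytes were first compared for the activating enzyme itself, since Atg7 is the targeted gene. Atg7 had signals of 129, 148 and 96 in KO paraquat arrays, 105, 111 and 103 in KO sham arrays, 442, 442 and 457 in wt paraquat arrays and 293, 356 and 286 in wt sham arrays. Every KO array was below every wt array, and the order of the group means was wt paraquat, wt sham, KO paraquat and KO sham, with only the last pair overlapping. In sham cultures the KO level was 34.3% of the wt level (95% interval 28.0% to 41.9%; log2 difference -1.55 ± 0.13, SE, n = 3 arrays each, adjusted p = 2.8e-05 in limma). In paraquat cultures the KO level was 27.4% of wt (22.4% to 33.5%; log2 difference -1.87 ± 0.13, adjusted p = 4.1e-05 in limma). An exact permutation test, 2-sided, with genotypes exchanged within each treatment, gave a mean log2 difference of -1.71 and p = 0.005, the smallest p that its 400 relabellings can give. By size of the log2 difference Atg7 ranked 2 among the falls of 22180 genes under paraquat and 33 in sham. Fitted on the 6 paraquat arrays alone, the adjusted p was 0.0512. The probe set was not tied to exons here, so its signal is not a measure of intact transcript or of protein.

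**Figure D1:**
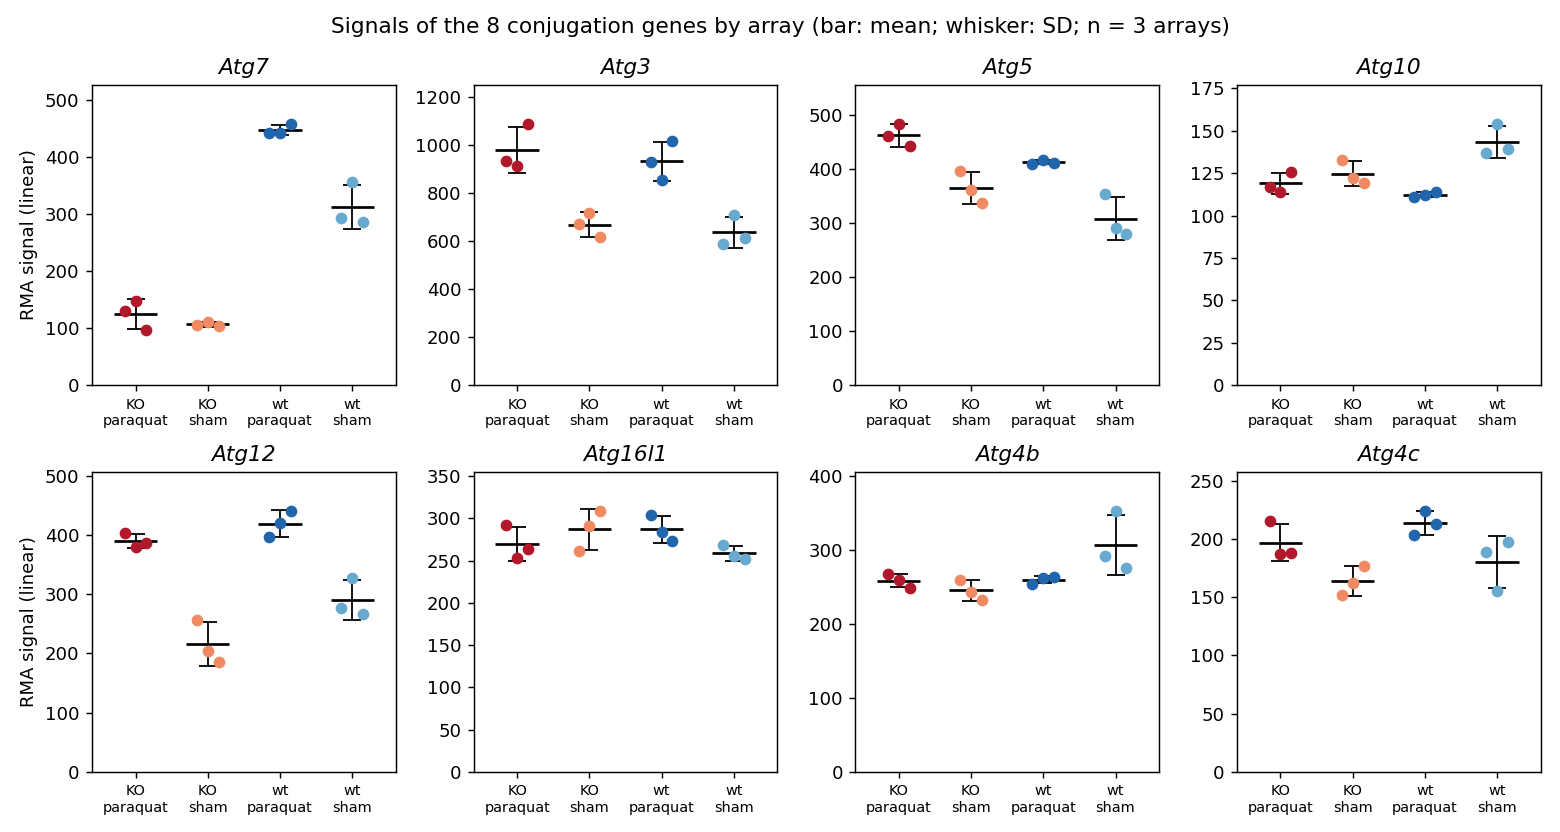
Signal (RMA, linear scale, vertical axis from 0) of the 8 conjugation genes in each array, by group (KO paraquat, KO sham, wt paraquat, wt sham), with the mean as a bar and the SD as whiskers (n = 3 arrays). Atg7 lies at 96 to 148 in the KO arrays and at 286 to 457 in the wt arrays, while Atg3, Atg5 and Atg12 lie higher under paraquat than in sham in both genotypes.

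Beyond Atg7, none of the conjugation genes passed the test between KO and wt under paraquat, and in sham cultures a pair of them fell in KO. Of the 8 genes, 1 fell and 0 rose in KO against wt under paraquat, where 0.55% of all genes were called and 0.451% were called lower. In sham cultures 3 fell and 0 rose, where 10.2% of all genes were called, 4.58% higher and 5.67% lower. The median log2 difference over the 8 genes was -0.05 under paraquat and -0.17 in sham, against -0.01 over all genes in sham. The gene called under paraquat was Atg7, and those called in sham were Atg7, Atg12 and Atg4b. Atg7 is the targeted gene, so its part in these counts and medians was set by the design.

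Atg12, the ubiquitin-like protein that ATG7 activates, had signals of 257, 204 and 185 in KO sham arrays and 277, 328 and 266 in wt sham arrays. All KO sham arrays were below all wt sham arrays, by a log2 difference of -0.44 ± 0.12 (adjusted p = 0.0309 in limma). The call was lost without KO sham 2 (log2 difference -0.41, adjusted p = 0.105), KO sham 3 (-0.34, adjusted p = 0.119) or wt sham 2 (-0.35, adjusted p = 0.128). Under paraquat Atg12 had 404, 380 and 387 in KO arrays and 396, 421 and 441 in wt arrays, and these overlapped (log2 difference -0.10, 95% interval -0.36 to 0.15).

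Atg4b, the protease with the broadest activity on LC3-family proteins, had signals of 260, 243 and 233 in KO sham arrays and 292, 353 and 276 in wt sham arrays. The groups did not overlap, and the log2 difference was -0.32 ± 0.09 (adjusted p = 0.0488 in limma). That call stood at the threshold and was lost in 16 of 22 alternatives, among them leaving out wt sham 2 (log2 difference -0.21, adjusted p = 0.167) or KO paraquat 3 (-0.32, adjusted p = 0.0596). Under paraquat Atg4b had 267, 260 and 249 in KO arrays and 254, 262 and 264 in wt arrays, which overlapped (log2 difference -0.01, 95% interval -0.21 to 0.19).

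The remaining members did not pass the test between genotypes. Atg5, the acceptor of ATG12, had signals of 396, 361 and 336 in KO sham arrays and 354, 291 and 279 in wt sham arrays (log2 difference 0.25, 95% interval 0.04 to 0.46, adjusted p = 0.146 in limma). The arrays overlapped through wt sham 1 at 354, and without it the log2 difference was 0.35 with an adjusted p of 0.0278. That was the only 1 of 22 alternatives in which Atg5 passed in sham. Over all of them the log2 difference ran from 0.18 to 0.35, with adjusted p up to 0.378. Under paraquat Atg5 had 461, 483 and 442 in KO arrays and 409, 416 and 411 in wt arrays, which did not overlap (log2 difference 0.16, interval -0.05 to 0.38, adjusted p = 0.587). The KO means of Atg5 were thus above the wt means in both treatments, by differences that did not pass.

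Atg10, the conjugating enzyme of ATG12, had signals of 133, 122 and 119 in KO sham arrays and 137, 154 and 139 in wt sham arrays (log2 difference -0.20, interval -0.37 to -0.03, adjusted p = 0.15 in limma). Atg3, the conjugating enzyme of LC3, differed by log2 0.07 in each treatment (intervals -0.16 to 0.30). For Atg16l1, which places the ATG12-ATG5 conjugate on the membrane, the log2 difference was -0.09 under paraquat and 0.15 in sham. Atg4c, a second protease of the ATG4 family, differed by log2 -0.12 under paraquat and -0.14 in sham. For Atg3, Atg16l1 and Atg4c the arrays of both genotypes overlapped in both treatments, and the 95% intervals stayed within 0.36 log2 units of 0. The arrays of KO and wt did not overlap for 4 of the 8 genes in sham (22.7% of all genes) and 2 of 8 under paraquat (17.0% of all genes).

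**Figure D2:**
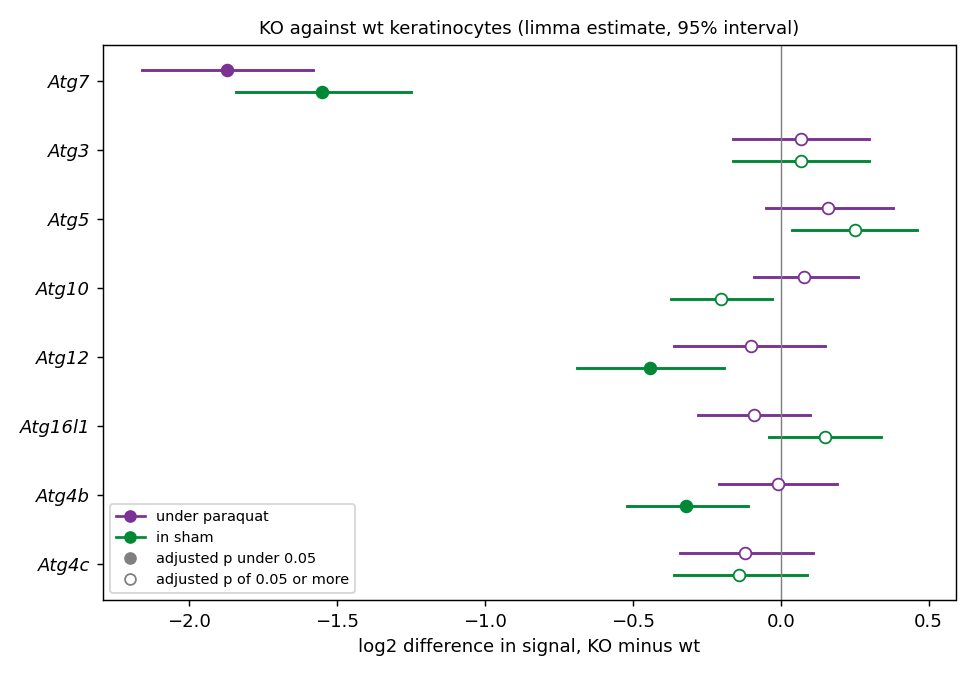
Log2 difference in signal, KO minus wt (horizontal axis), for the 8 genes under paraquat and in sham, with 95% intervals from limma (n = 3 arrays per group) and filled points for an adjusted p under 0.05. Atg7 stands at -1.87 under paraquat and -1.55 in sham, and every other gene lies between -0.44 and 0.25.

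The response to paraquat was compared next, in each genotype. In KO cells Atg3, Atg5 and Atg12 rose, and in wt cells Atg7, Atg3, Atg5 and Atg12 rose while Atg10 fell. Thus 3 of the 8 genes rose and 0 fell in KO, where 27.1% of all genes were called (14.5% higher, 12.6% lower). In wt 4 rose and 1 fell, where 29.2% of all genes were called (14.9% higher, 14.3% lower). The median log2 change over the 8 genes was 0.23 in KO and 0.34 in wt, against 0.01 over all genes in both. Called changes were 1.27-fold to 1.83-fold in either direction, smaller than the genotype difference in Atg7. The arrays of paraquat and sham did not overlap for 4 of the 8 genes in KO (37.2% of all genes) and for 8 of 8 in wt (37.6% of all genes).

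Atg3 had signals of 933, 910 and 1086 in KO paraquat arrays and 669, 717 and 614 in KO sham arrays. It had 927, 852 and 1014 in wt paraquat arrays and 588, 707 and 611 in wt sham arrays. The paraquat arrays lay above the sham arrays in both genotypes, and at either treatment KO and wt overlapped. Atg3 rose 1.46-fold in KO (log2 change 0.55 ± 0.11, adjusted p = 0.00143 in limma) and 1.47-fold in wt (0.55 ± 0.11, adjusted p = 0.00115).

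Atg12 gave the largest rise of the 8 genes in KO, at 1.83-fold (log2 change 0.87 ± 0.12, adjusted p = 8.64e-05 in limma). Its signals there were 404, 380 and 387 under paraquat and 257, 204 and 185 in sham. In wt it rose 1.45-fold (log2 change 0.54 ± 0.12, adjusted p = 0.00322), with 396, 421 and 441 under paraquat and 277, 328 and 266 in sham. The order of the group means was wt paraquat, KO paraquat, wt sham and KO sham, and only the paraquat groups overlapped.

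Atg5 rose 1.27-fold in KO (log2 change 0.34 ± 0.10, adjusted p = 0.0176 in limma) and 1.34-fold in wt (0.43 ± 0.10, adjusted p = 0.00425). The KO paraquat arrays (442 to 483) were all above the KO sham arrays (336 to 396), and the wt paraquat arrays (409 to 416) above the wt sham arrays (279 to 354). The call in KO was lost without KO sham 3 (adjusted p = 0.0743) or without KO paraquat 2 (adjusted p = 0.068). Atg12, its conjugation partner, thus rose in the same cultures.

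Atg7 rose in wt cells by 1.44-fold (log2 change 0.53 ± 0.13, adjusted p = 0.00873 in limma). In KO cells its log2 change was 0.20, with a 95% interval from -0.09 to 0.49 (adjusted p = 0.319), and the arrays overlapped. Over 22 alternatives the log2 change in KO ran from 0.07 to 0.38, with adjusted p in limma up to 0.789. It passed in 2 of them, both without KO paraquat 3, which had the lowest Atg7 signal of all 12 arrays, at 96. Without that array alone the log2 change in KO was 0.38 with an adjusted p of 0.023. With 3 arrays per group, these values cannot show whether Atg7 rose in KO.

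Atg10 went the other way in wt cells, where it fell to 111, 112 and 114 under paraquat, against 137, 154 and 139 in sham (log2 change -0.35 ± 0.08, adjusted p = 0.00435 in limma). In KO cells it had 117, 114 and 126 under paraquat and 133, 122 and 119 in sham, which overlapped (log2 change -0.07, interval -0.24 to 0.11). Wt sham held the highest Atg10 level, and the other 3 groups lay between 111 and 133. Thus the conjugating enzymes of the 2 branches, Atg10 for ATG12 and Atg3 for LC3, moved in opposite directions in wt.

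Atg16l1 and the proteases did not pass the test under paraquat in either genotype. Atg16l1 had 292, 253 and 264 in KO paraquat arrays, 261, 291 and 309 in KO sham arrays, 304, 284 and 273 in wt paraquat arrays and 269, 255 and 252 in wt sham arrays. Each neighbouring pair in the order of its means overlapped. Atg4b changed by log2 0.08 in KO (interval -0.13 to 0.28) and by -0.23 in wt (interval -0.43 to -0.03, adjusted p = 0.0853 in limma). The wt value passed in 2 of 22 alternatives, after a filter on dim genes (adjusted p = 0.047) and without wt sham 3 (adjusted p = 0.0384).

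Atg4c had 215, 187 and 188 in KO paraquat arrays, 152, 162 and 177 in KO sham arrays, 203, 224 and 213 in wt paraquat arrays and 189, 155 and 197 in wt sham arrays. Its paraquat arrays lay above the sham arrays of the same genotype. The log2 changes were 0.26 in KO (interval 0.04 to 0.49, adjusted p = 0.08 in limma) and 0.25 in wt (0.02 to 0.47, adjusted p = 0.0964). In KO the value passed in 4 of 22 alternatives, among them centring on array medians (adjusted p = 0.029) and leaving out wt sham 2 (adjusted p = 0.0401).

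**Figure D3:**
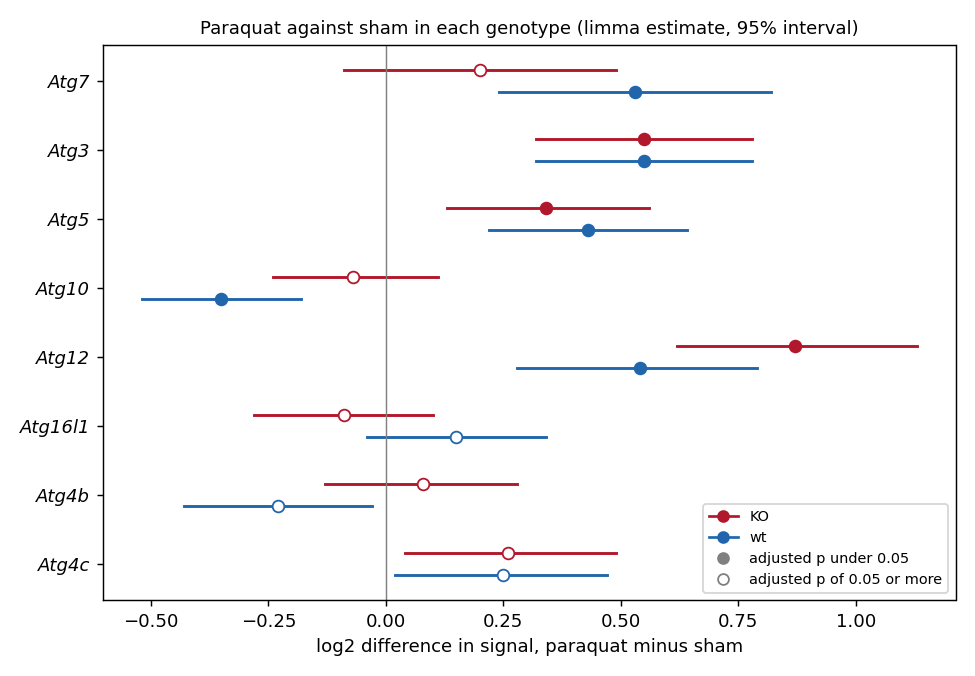
Log2 difference in signal, paraquat minus sham (horizontal axis), for the 8 genes in KO and wt, with 95% intervals from limma (n = 3 arrays per group) and filled points for an adjusted p under 0.05. Atg3 stands at 0.55 in both genotypes, Atg12 at 0.87 in KO and 0.54 in wt, and Atg10 at -0.07 in KO and -0.35 in wt.

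Whether the response itself differed between the genotypes was tested as the KO response minus the wt response. None of the 8 genes passed (0 in limma, with 2 at an unadjusted p under 0.05), where 2.29% of all genes were called. Both of these genes had their highest level in wt sham, the arrays that the wt response shares with the genotype comparison in sham. They were Atg4b (log2 0.31, 95% interval 0.02 to 0.60, adjusted p = 0.283) and Atg10 (0.28, interval 0.04 to 0.53, adjusted p = 0.243). For Atg12 the difference was 0.34 (-0.02 to 0.70), for Atg7 -0.32 (-0.74 to 0.09) and for Atg16l1 -0.24 (-0.51 to 0.03). For Atg5 it was -0.08 (-0.38 to 0.22). Atg3 and Atg4c differed least, with intervals of -0.33 to 0.32 and -0.30 to 0.33. The Atg7 rise in wt and its smaller value in KO are therefore not shown to differ.

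The cascade was set beside the rest of the autophagy pathway, 46 measured genes of 50 listed by role. Of the 46, 22 rose and 5 fell in KO under paraquat (median log2 change 0.30), and 22 rose and 7 fell in wt (0.07). Over all genes 14.5% rose and 12.6% fell in KO, and 14.9% rose and 14.3% fell in wt. Between genotypes, 0 passed under paraquat, where 0.55% of all genes were called (median log2 difference, KO minus wt, -0.09, with 12 at an unadjusted p under 0.05). In sham 8 fell in KO (median -0.14), where 5.67% of all genes were called lower. Of these 8 falls, 6 remained without wt sham 2, when Wdr45 (adjusted p = 0.0777 in limma) and Foxo3 (0.0733) lost their calls. Fitted on the 6 sham arrays alone, 4 remained (Ulk2, Sqstm1, Calcoco1 and Uba6).

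The substrates of the cascade moved in 2 directions. Of 5 LC3 and GABARAP genes, 3 rose and 1 fell in each genotype. Of all genes, 14.5% rose and 12.6% fell in KO, and 14.9% rose and 14.3% fell in wt. Gabarapl2 rose by log2 0.72 ± 0.13 in KO (adjusted p = 0.00104 in limma) and 1.21 ± 0.13 in wt (adjusted p = 1.16e-05). Map1lc3a rose by log2 0.87 in KO and 0.85 in wt, and Gabarap by 0.69 in KO and 0.78 in wt. Map1lc3b, the LC3 gene most used as an autophagosome marker, changed by log2 -0.68 ± 0.11 in KO (adjusted p = 0.000386) and -1.10 ± 0.11 in wt (adjusted p = 5e-06). Between genotypes 0 of the 5 passed in limma in either treatment, with 2 at an unadjusted p under 0.05 in each. Of all genes, 0.55% were called under paraquat and 10.2% in sham. Thus Atg3 rose together with 3 of the 5 genes whose proteins it conjugates, while Map1lc3b fell.

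Upstream groups that bring lipid to the growing membrane held the most rises. Of 8 ATG9, ATG2 and WIPI genes, 7 rose and 0 fell in each genotype, with a median log2 change of 0.57 in KO and 0.65 in wt. The shares of all genes were 14.5% rising and 12.6% falling in KO, and 14.9% and 14.3% in wt. Atg2a, a lipid transfer protein, rose by log2 0.91 ± 0.09 in KO (adjusted p = 6.78e-06 in limma) and 1.07 ± 0.09 in wt (adjusted p = 1.03e-06). Wipi1, a reader of phosphatidylinositol 3-phosphate, rose by 0.71 in KO and 0.93 in wt. Of 5 ULK complex genes 3 rose and 0 fell in KO, and 4 rose and 1 fell in wt. Ulk1, the initiating kinase, rose by 0.60 in KO and 0.43 in wt, and its partner Atg13 by 0.55 in KO and 0.53 in wt. The gene that fell in wt was Ulk2, which changed by log2 -1.10 ± 0.08 (adjusted p = 2.77e-07 in limma). In KO Ulk2 changed by -0.13 and did not pass (adjusted p = 0.291). Of 8 class III PI3-kinase genes 2 rose and 0 fell in each genotype. These were Atg14, with log2 changes of 0.60 in KO and 0.35 in wt, and Nrbf2, with 0.44 in KO and 0.36 in wt.

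Close relatives of the 8 genes were called at about the share of all genes (27.1% in KO and 29.2% in wt). Of Atg4a, Atg4d, Atg16l2 and Tecpr1, which binds ATG12-ATG5 at lysosomes, 0 rose and 1 fell in KO, and 1 rose and 0 fell in wt, with 3 in KO and 1 in wt at an unadjusted p under 0.05. Atg16l2 changed by log2 -0.25 ± 0.08 in KO (adjusted p = 0.0455 in limma), a call lost in 16 of 22 alternatives, among them leaving out KO paraquat 3 (adjusted p = 0.141). Atg4a rose by log2 0.39 ± 0.11 in wt (adjusted p = 0.014). Of 4 selective autophagy receptors 2 rose and 0 fell in KO, and 1 rose and 1 fell in wt. Nbr1 rose by log2 0.55 in KO and 0.60 in wt.

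**Figure D4:**
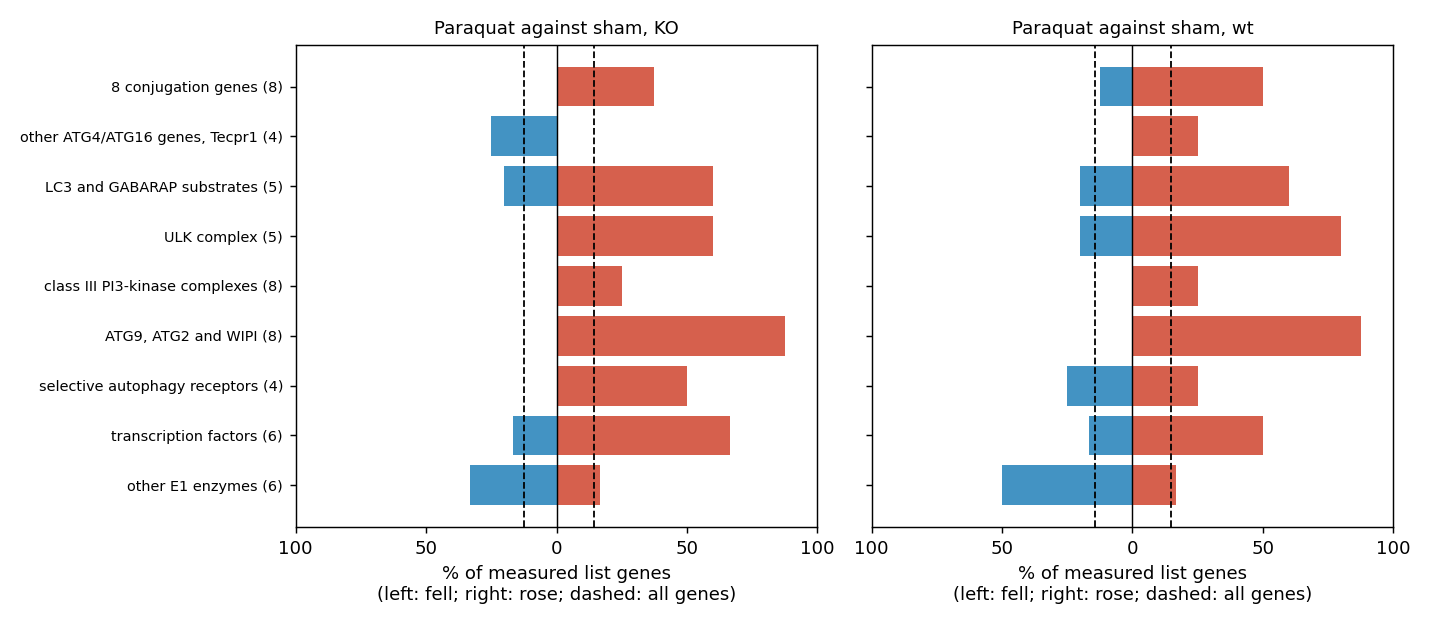
Share of each list's measured genes (number in brackets) that rose (right) or fell (left) at an adjusted p under 0.05, paraquat against sham, in KO and in wt, with dashed lines at the share of all genes. Of the 8 conjugation genes 3 rose in KO and 4 rose in wt, and the ATG9, ATG2 and WIPI list has the most rises, 7 of 8 in each genotype.

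Markers of other cells moved with paraquat as well. Over all genes 14.5% rose and 12.6% fell in KO, and 14.9% rose and 14.3% fell in wt. The summed signal of 5 melanocyte markers was 551 to 670 in KO paraquat arrays and 239 to 247 in KO sham arrays, and 601 to 619 in wt paraquat arrays and 181 to 266 in wt sham arrays. Of these 5, 3 rose in each genotype, mostly through Mlana (340 to 392 in KO paraquat, 62 to 77 in KO sham, 368 to 398 in wt paraquat and 53 to 73 in wt sham), while Tyr stayed at 7 to 12 throughout. Of 5 leukocyte markers 1 rose and 1 fell in KO and 1 rose in wt, and their sum was 1328 to 1604 in KO paraquat, 710 to 797 in KO sham, 1907 to 1998 in wt paraquat and 680 to 734 in wt sham. Cd68, a lysosomal protein also made outside leukocytes, carried most of it, at 1214 to 1482 in KO paraquat, 585 to 688 in KO sham, 1778 to 1870 in wt paraquat and 559 to 610 in wt sham. The sum of 5 fibroblast markers, of which 1 rose in each genotype, was 197 to 203 in KO paraquat, 158 to 183 in KO sham, 226 to 294 in wt paraquat and 171 to 211 in wt sham. The sum of 4 endothelial markers, of which 2 rose in KO and 3 in wt, was 281 to 322 in KO paraquat, 178 to 196 in KO sham, 351 to 430 in wt paraquat and 159 to 179 in wt sham. Between genotypes 0 of the 15 melanocyte, fibroblast and leukocyte markers passed in limma in either treatment (at an unadjusted p under 0.05, 2 fibroblast, 1 melanocyte and 1 leukocyte marker under paraquat and 2 fibroblast markers in sham), and 1 of 4 endothelial markers rose in KO sham. Over all genes 0.55% were called between genotypes under paraquat and 10.2% in sham. In the KO response minus the wt response, 1 of the 5 leukocyte markers was called, with a lower response in KO. There 0 of the melanocyte, fibroblast and endothelial markers passed, and 2.29% of all genes were called. The Cd68 arrays of KO paraquat and wt paraquat did not overlap. The part of cells other than keratinocytes in the Atg7 signal left in KO, or in the paraquat changes, was not tested. In RNA of whole cultures, fewer cells of a type and less RNA per cell cannot be told apart.

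The 5 named genes whose pattern over the 12 arrays lay nearest to Atg7 were Dsc1, Lor, Bpifc, Asprv1 and Zfp462. Likeness was the root mean square difference between log2 signals centred on each gene's mean, and it is given as a description. Dsc1, the desmosomal cadherin desmocollin 1, was nearest at 0.38 log2 units. Its signals were 514 to 630 in KO paraquat, 252 to 366 in KO sham, 1041 to 1167 in wt paraquat and 746 to 1203 in wt sham. Like Atg7 it was lower in every KO array than in every wt array. Lor, the cornified envelope protein loricrin, followed at 0.49, with means of 85.0 in KO paraquat, 49.0 in KO sham, 160 in wt paraquat and 94.3 in wt sham. Bpifc was also at 0.49, Asprv1, an aspartic protease that processes filaggrin, at 0.52, and the zinc finger gene Zfp462 at 0.53. Among the other conjugation genes Atg12 was the nearest to Atg7, at 0.77 and rank 731 of all genes, and the others lay between 0.82 and 0.97.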

How the data were processed

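Gene expression in 12 keratinocyte cultures was measured with 1 Affymetrix array for each culture. Probe set intensity values were deposited by the authors. The submitters' processing notes name RMA and version 1.3.1.187 of Affymetrix Expression Console. In the table, intensities ran in whole numbers from 3 to 17695 with array medians of 42 to 45, and they were read as RMA signals on a linear scale, so their log2 was taken. For filters and the genome build, the sources used here give nothing.

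Of 41345 probe sets, 23521 had 1 gene symbol, 1814 several and 16010 none. The probe set with the highest mean stood for each of 22180 genes. Groups were compared in R 4.3.3 with limma 3.58.1 (1 mean per group, 12 arrays, 2-sided, Benjamini-Hochberg over all genes, threshold 0.05), after a test on simulated arrays. The number of arrays limits the precision. Gene locations and promoters came from RefSeq (GRCm38.p6), with windows for 6 of the 8 genes.

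The members, gene lists and alternatives were chosen with earlier results of these data known. By rule, all 8 members were named, with Krt14, up to 3 rises and 3 falls per pathway list and comparison (otherwise the smallest p), and the 5 genes nearest to Atg7, leaving out predicted and clone-named genes. Tfeb was named outside this rule, as a factor that binds the E-box. Alternatives were a second quantile normalization, median centring, a filter on dim genes, 16 added before log2, the mean over probe sets, every probe set tested, array weights, only the arrays compared, a replicate block, each array left out, and wt sham 2 and KO paraquat 3 left out together.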

Additional observations from a re-analysis of the deposited data

Results flagged for a closer look

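The responses of 3 of the 46 pathway genes outside the 8 differed between genotypes in limma's test of the difference (KO response minus wt response). In that test 2.29% of all genes were called. In each of the 3 genes the wt sham arrays stood above the other groups. Ulk2, a kinase related to ULK1, had signals of 192 to 201 in KO paraquat, 211 to 217 in KO sham, 145 to 171 in wt paraquat and 331 to 358 in wt sham, a difference of log2 0.97 (adjusted p = 0.000738). Sqstm1, the receptor p62 that autophagy degrades, had 1120 to 1370 in KO paraquat, 847 to 1059 in KO sham, 1267 to 1369 in wt paraquat and 1818 to 2751 in wt sham, a difference of log2 1.09 (adjusted p = 0.0134). Uba6, a second activating enzyme of ubiquitin, had 948 to 1008 in KO paraquat, 1228 to 1347 in KO sham, 860 to 915 in wt paraquat and 1666 to 1888 in wt sham, a difference of log2 0.59 (adjusted p = 0.0158, and 0.069 without both wt sham 2 and KO paraquat 3).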

How the results depend on the processing

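In sham, the count of conjugation genes that differed between KO and wt was 3, and it was 1 (Atg7) with every probe set tested, from the arrays compared alone, and without both wt sham 2 and KO paraquat 3. Leaving out 1 array gave 1 to 3, with 1 without wt sham 2, KO sham 2 or KO sham 3. Under paraquat the count was 1, and 0 from the arrays compared alone. Leaving out 1 array gave 1 under paraquat, 2 to 4 for the response in KO, 5 to 6 in wt and 0 for the difference between responses. With the replicate number as a block the counts were 2 in sham, 1 under paraquat, 3 in KO, 5 in wt and 0, and the one member whose call changed was Atg4b in sham (adjusted p = 0.0612). Of 18 same-numbered pairs of arrays, 0 had deviations correlated above 0.1 (-0.0727 to 0.0902). A differently numbered pair, wt sham 2 and KO sham 1, reached 0.145. With 3 arrays per group, these values cannot show whether same-numbered cultures shared an animal or a day. The Atg7 difference over both treatments was -1.78 to -1.62 with 1 array left out. With labels exchanged over all 12 arrays, across treatments, the exact permutation test gave p = 0.00216, the smallest that its 924 relabellings can give. Signs turned only in values near 0 that did not pass: Krt14 in sham (-0.01 when centred), Atg3 under paraquat (-0.01 without both arrays, -0.01 to 0.13 with 1 array left out), Atg4b under paraquat (0.01 when centred, 0.02 without both arrays, -0.03 to 0.02 with 1 array left out), and the differences between responses of Atg3 (0.04 when centred, -0.08 to 0.06 with 1 array left out) and Atg4c (-0.05 to 0.12 with 1 array left out). The Krt14 fall in KO lost its call in 8 of 22 alternatives (adjusted p = 0.0501 to 0.113). The pathway genes that fell in KO sham numbered 8, 4 from the arrays compared alone, and 6 to 12 with 1 array left out. Those that fell under paraquat in KO numbered 5, and 3 when centred or without KO sham 1 or KO paraquat 2 (Atg16l2 and Sae1 were lost). Where 0 passed, 1 rose in KO sham with 16 added, and 1 fell in KO under paraquat with 16 added or after the filter.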

Other observations

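Other activating enzymes changed in both directions under paraquat. Of 6 measured E1 subunits of ubiquitin and ubiquitin-like proteins, 1 rose and 2 fell in KO under paraquat, and 1 rose and 3 fell in wt. Of all genes, 14.5% rose and 12.6% fell in KO, and 14.9% rose and 14.3% fell in wt. Uba6 changed by log2 -0.41 ± 0.08 in KO (adjusted p = 0.00139 in limma) and -0.99 ± 0.08 in wt (adjusted p = 5.32e-07). Sae1, of the SUMO activating enzyme, changed by -0.29 in KO and -0.37 in wt, and Mocs3, which activates URM1, rose by 0.44 in KO and 0.45 in wt. Between genotypes 0 of the 6 passed in limma under paraquat (1 at an unadjusted p under 0.05), and in sham Uba6 alone of them was lower in KO (log2 -0.45 ± 0.08, adjusted p = 0.00249). Of all genes, 0.55% were called under paraquat and 10.2% in sham.

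Of 6 transcription factors of autophagy and lysosome genes, 4 rose and 1 fell in KO under paraquat, and 3 rose and 1 fell in wt. The shares of all genes were 14.5% rising and 12.6% falling in KO, and 14.9% and 14.3% in wt. Foxo3 rose by log2 1.11 ± 0.10 in KO (adjusted p = 3.93e-06 in limma) and 0.81 ± 0.10 in wt (adjusted p = 3.76e-05), and Foxo1 by 0.83 in KO and 0.58 in wt. Zkscan3, a repressor of autophagy genes in human cells, changed by -0.47 in KO and -0.40 in wt. Mitf, which binds E-boxes, rose by 0.37 in KO and 0.71 in wt (KO response minus wt response -0.34, adjusted p = 0.284 in limma). Tfeb, also an E-box factor, did not pass, at 0.16 in KO (adjusted p = 0.164 in limma) and 0.04 in wt (adjusted p = 0.77). Its mean signals, 34.0 to 38.0, lay below the array medians of 42 to 45. Tfe3 changed by 0.30 in KO (adjusted p = 0.0143) and 0.04 in wt (adjusted p = 0.776), and these are not shown to differ (0.26, adjusted p = 0.308). In sham, Tfe3 and Foxo3 were lower in KO than in wt, by log2 differences of -0.39 (adjusted p = 0.00853) and -0.43 (adjusted p = 0.0174, and 0.0733 without wt sham 2). The Zkscan3 call in wt and the Sae1 call in KO were each lost in 5 of 22 alternatives.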
